A study of Homo sapiens with 12 samples.

Results

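Liver miRNAs were followed through small RNA libraries made from MDA-MB-231, an established human line from triple-negative breast cancer, and of the extracellular vesicles (EVs) it released. The members are the 5 rows of the count table named hsa-miR-122-5p, hsa-miR-122-3p, hsa-miR-192-5p, hsa-miR-194-5p and hsa-miR-885-5p (written without hsa below), of 2588 mature human miRNAs in all, chosen by name. There were 12 libraries in 6 groups of 2. The RAB27A knockdown line carried a lentiviral short hairpin RNA against RAB27A, a Rab GTPase known for bringing multivesicular bodies to the cell surface before EVs are released. The miR-122 knockout line was made by CRISPR-Cas9 editing of the hsa-miR-122 gene with a pair of guide RNAs. The control line carried the empty short hairpin vector. Each of the 3 lines gave EVs and the cells that had made them, collected together after growth in 10% fetal bovine serum and a final 24 h without serum, in which 1% bovine serum albumin was added. The knockdown rests on 1 hairpin. The labels do not say whether the knockout line is a single clone, whether it carries the vector of the control line, or whether replicates came from separate cultures; the p-values below therefore reflect the spread between these libraries alone, and that spread may be technical.

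miR-122 is the most abundant miRNA of hepatocytes, where it sustains lipid and cholesterol metabolism. In blood, EVs and protein complexes carry it, and it serves as a serum marker of liver injury. In breast cancer, miR-122 carried by EVs is known for lowering glucose uptake in cells of the metastatic niche through pyruvate kinase M. miR-192 and miR-194 are made from shared transcripts in liver, gut and kidney epithelium, under HNF factors, and both can be induced by p53. miR-885-5p is a liver-enriched miRNA that is also used as a serum marker. A mature miRNA pairs with its targets mainly through its seed, bases 2 to 8 from the 5′ end.

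The mature sequences of the 5 members, and of miR-215-5p as the closest relative, are shown because they settle which rows could share reads; capitals mark the seed, and the sequences are from RefSeq (GRCh38.p14).
hsa-miR-122-5p: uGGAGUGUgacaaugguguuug
hsa-miR-122-3p: aACGCCAUuaucacacuaaaua
hsa-miR-192-5p: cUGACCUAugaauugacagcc
hsa-miR-194-5p: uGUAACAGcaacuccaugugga
hsa-miR-885-5p: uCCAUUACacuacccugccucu
hsa-miR-215-5p: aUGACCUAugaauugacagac

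miR-192-5p and miR-215-5p share a seed and 19 of 21 bases. They differ by C1A and C20A, counted from the 5′ end of miR-192-5p with its base first. A read that lacks both of these bases could be counted for either row. No other mature human sequence in RefSeq shared the seed of miR-122-5p, miR-194-5p or miR-885-5p. The nearest other row of the table was 5 edits from miR-122-5p, 8 from miR-194-5p and 7 from miR-885-5p. miR-194-5p has 2 source genes with the same mature sequence, so its counts cannot be split between them.

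The source genes are given here on GRCh38. MIR122 spans 58451074 to 58451158 of chromosome 18 (plus strand), in an exon of the long non-coding host gene MIR122HG in GENCODE, opposite MIR3591 on the other strand. MIR192 lies on the minus strand of chromosome 11 at 64891137 to 64891246, and MIR194-2 is 108 bases away at 64891355 to 64891439; both overlap an exon of MIR194-2HG. MIR194-1 lies on the minus strand of chromosome 1 at 220118157 to 220118241, near MIR215 at 220117853 to 220117962, both opposite an intron of IARS2, an isoleucine tRNA synthetase gene. MIR885 lies on the minus strand of chromosome 3 at 10394489 to 10394562, in an intron of ATP2B2, a calcium pump gene.

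The knockout guides were placed on the miR-122 hairpin of 85 bases, printed here to show where they sit relative to the mature arms; capitals mark the bases that either guide matches.
MIR122 hairpin: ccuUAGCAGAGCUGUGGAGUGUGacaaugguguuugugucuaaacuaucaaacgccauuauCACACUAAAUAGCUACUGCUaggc
guide on the sense strand: cacactaaatagctactgct
guide on the antisense strand: cacactccacagctctgcta

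The sense guide matched hairpin positions 62 to 81 (58451135 to 58451154) and the antisense guide positions 4 to 23 (58451077 to 58451096), each next to an AGG motif of the kind that Streptococcus pyogenes Cas9 recognises. The mature miR-122-5p occupies positions 15 to 36 and miR-122-3p positions 51 to 72, so the guides overlap 9 bases of the 5p arm and 11 of the 3p arm. Cas9 usually cuts 3 bases from this motif, which would be after positions 6 and 78, outside both arms and 72 bases apart. The edited alleles are not analysed here.

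Library totals ran from 164656 to 11840597 counts. The RAB27A knockdown EV libraries were the shallowest, at 164656 and 170366 counts, so that 1 count was worth 6.07 and 5.87 CPM there (CPM scales each count to the library total), against at most 0.419 CPM elsewhere. The 5 markers of the line, among them miR-21-5p, miR-100-5p and miR-221-3p, summed to between 490198 and 709090 CPM in every library, and the 5 epithelial miRNAs of the miR-200 family, low in this line, to between 129 and 425 CPM. Marker lists of other cell types also moved. The 10 blood cell miRNAs, such as miR-451a and miR-223-3p, summed to 9895 and 11528 CPM in control EVs and to between 112 and 289 CPM in the other 10 libraries. The 8 stromal miRNAs summed to 3378 and 3497 CPM in control EVs and to between 9.74 and 115 CPM elsewhere.

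miR-122-5p, the targeted miRNA, was high in control EVs and rare or absent in control cells, in knockout cells and in knockout EVs. It had 1548 counts in all, 1460 of them in EV libraries and 88 in cell libraries. Knockdown EVs held 7 and 5 counts, which were 42.5 and 29.3 CPM. Knockout EVs held 4 and 3 counts, 1.07 and 0.947 CPM. Control EVs held 790 and 651 counts, 331 and 251 CPM, where the 95% exact Poisson interval ran over 308 to 355 CPM in the first and 232 to 271 CPM in the second; intervals here cover counting error only. Among the cells, the knockdown line held 39 and 40 counts (12.3 and 12.7 CPM), the knockout line none, and the control line 5 and 4 counts (0.422 and 0.361 CPM). The EV means were 35.9 CPM ± 9.31 in the knockdown line, 1.01 ± 0.0834 in the knockout line and 291 ± 56.7 in the control line, and the cell means 12.5 ± 0.278, 0 and 0.392 ± 0.043 CPM in the same order of lines (SD, n = 2 each); the 0 in knockout cells allows up to 0.15 CPM over the group. By level the groups ordered as control EVs, knockdown EVs, knockdown cells, knockout EVs, control cells and knockout cells. No neighbours in that order overlapped by library, but the Poisson intervals of the pooled counts overlapped between knockout EVs and control cells and between control cells and knockout cells.

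**Figure D1:**
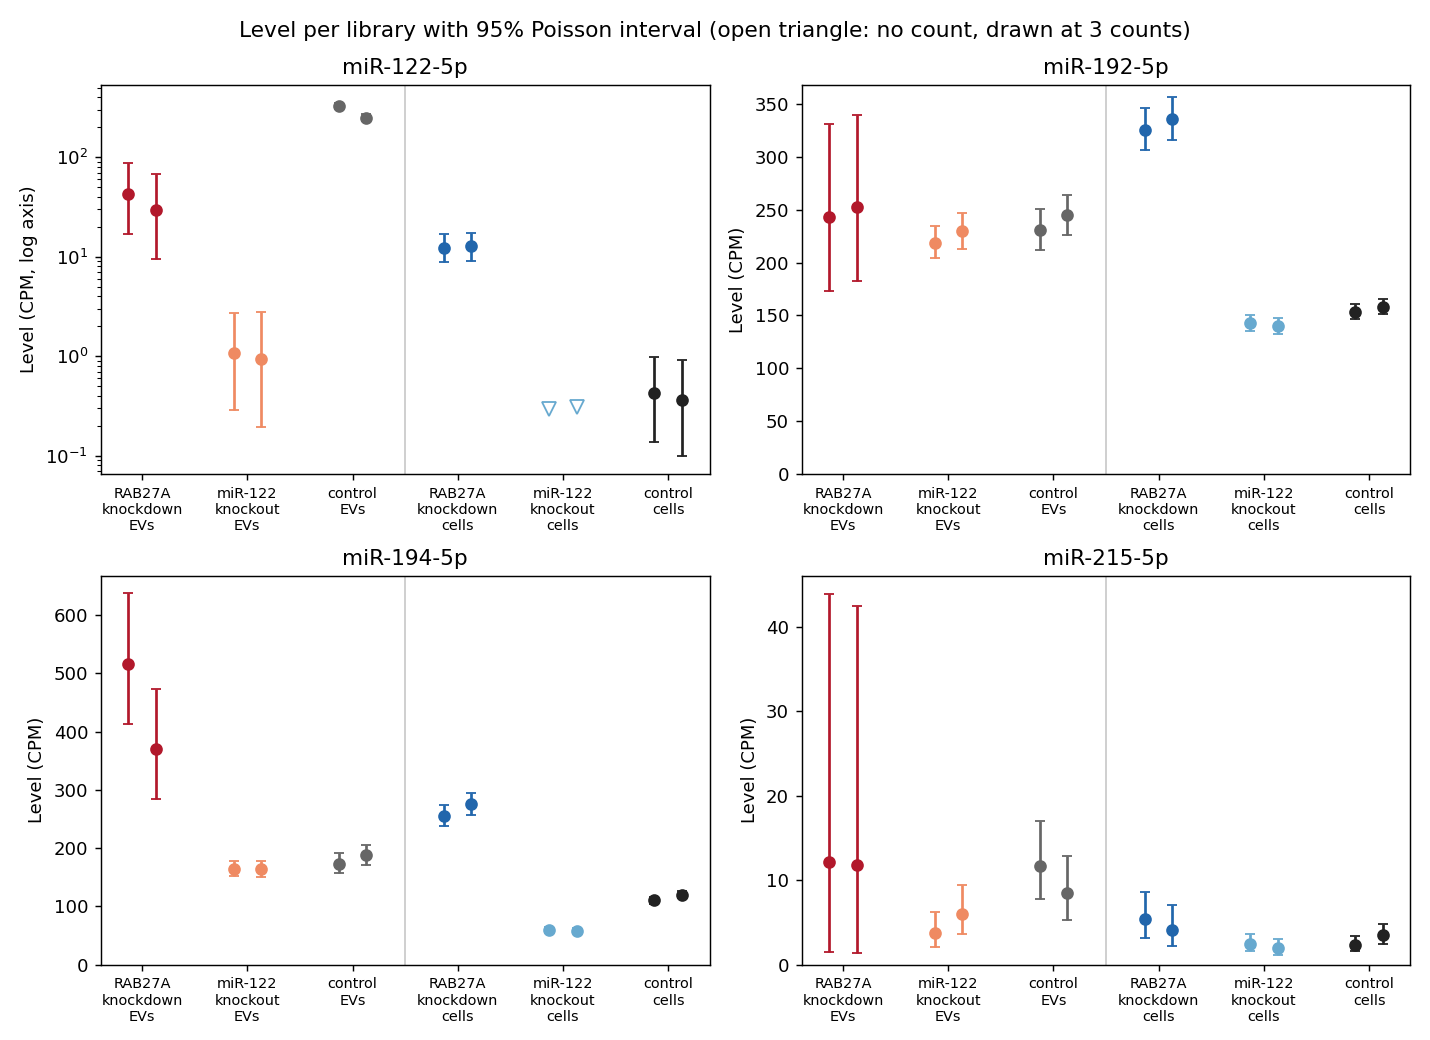
Level of miR-122-5p, miR-192-5p, miR-194-5p and miR-215-5p in each of the 12 libraries (CPM; a log axis for miR-122-5p only), with 95% Poisson intervals; open triangles mark libraries with no count, drawn at 3 counts. miR-122-5p peaks in control EVs, at 331 and 251 CPM, while miR-192-5p is highest in knockdown cells, at 326 and 336 CPM, and miR-194-5p in knockdown EVs, at 516 and 370 CPM.

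The first comparison asked how miR-122-5p differed between the lines inside cells. Here and below, adjusted p-values are from edgeR's quasi-likelihood test with TMM factors, adjusted over all miRNAs tested. In knockdown cells miR-122-5p was higher than in control cells, with a log2 fold change of 4.95 (SE 0.40, adjusted p = 3.4e-09), and the ratio of pooled CPM was 31.9 (95% exact interval 16 to 72.4). It ranked 268 and 259 by abundance in the knockdown cell libraries, against 694 and 714 in the control cell libraries. On knockout and control cells alone it did not pass the filter on low counts. It was thus tested here through its level in knockdown cells, which sets the direction of this comparison. Of 613 miRNAs tested in cells, 53.8% passed an adjusted p of 0.05 in this comparison, 24.3% as higher and 29.5% as lower; the count of 330 calls was 196 without knockdown cell replicate 1 and 218 without replicate 2. Knockout cells held less miR-122-5p than control cells (adjusted p = 0.00817), with no count against 9. With 3 counts set for the knockout group, the level by library totals was 2.62-fold lower. That ratio leaves out the counting error of the 9 counts, so it is not a lower bound. In that comparison 62.3% of the miRNAs tested passed, 27.7% as higher and 34.6% as lower; with library totals in place of TMM factors 32.4% of the calls were higher, against 44.5%.

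In EVs miR-122-5p was lower in the knockdown and in the knockout line than in the control line. Between knockdown and control EVs the log2 fold change was −3.14 (SE 0.35, adjusted p = 8.6e-06), and the pooled level was 8.07-fold lower (95% exact interval 4.61 to 15.7). Between knockout and control EVs it was −7.72 (SE 0.30, adjusted p = 2.8e-10), and the pooled level was 286-fold lower (138 to 712). Of 488 miRNAs tested in EVs, 46.3% passed in the knockdown comparison, 18.9% as higher and 27.5% as lower, and 41.2% in the knockout comparison, 18.9% as higher and 22.3% as lower; the 201 calls of the knockout comparison were 127 without control EV replicate 2. The higher share of those calls was 45.8%, and 19.2% with library totals; in the knockdown comparison it was 40.7%, and 58.5% with a correction for GC content. Both comparisons share the control EVs. In bulk libraries, fewer vesicles that carry a miRNA and fewer copies per vesicle cannot be told apart.

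The blood, stromal and endothelial lists were lower in the same EVs. The blood list summed to 217 CPM ± 66.5 in knockdown EVs, 192.3 ± 48.2 for knockout EVs and 10711 ± 1154 for control EVs (SD, n = 2 each). The knockdown EVs held a count for 6 of its 10 members, knockout EVs for 9 and control EVs for 10. Of its 10 members, 9 were lower in knockdown EVs and 9 in knockout EVs than in control EVs, and none was higher. Of all 488 miRNAs tested, 27.5% were lower in knockdown EVs and 22.3% in knockout EVs. Some members of these lists could pass the filter through control EVs alone, which sets their direction. An example is miR-223-5p, with 58 counts in control EVs and 0 in knockdown and knockout EVs. The stromal list summed to 113 CPM ± 2.73 in knockdown EVs, 36.3 ± 10.8 for knockout EVs and 3437 ± 84.4 for control EVs, and 7 of its 7 tested members were lower in each line. The erythroid miR-451a averaged 44.5 CPM ± 20 in knockdown EVs, 22.5 ± 20.6 for knockout EVs and 4484 ± 718 for control EVs, and the myeloid miR-223-3p had no count in knockdown EVs, 16 for knockout EVs and 1710 for control EVs. Both arms of the endothelial miR-126 were lower in both lines as well. Their part in the lower miR-122-5p was not tested.

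In cells, miR-122-5p was higher in the knockdown than in the control line. Of the 4 tested blood miRNAs, none was higher there and 2 were lower. Over all 613 miRNAs tested, 24.3% were higher and 29.5% lower, and 4 miRNAs are too few to set against these shares. The blood list summed to 113 CPM ± 0.702 in knockdown cells and 282 ± 9.94 in control cells (SD, n = 2 each). Most of that sum was the erythroid miR-486-5p, at 97.0 CPM ± 0.635 in knockdown cells and 265 ± 11.8 in control cells, while miR-142-3p averaged 6.03 CPM in knockdown cells and 5.30 in control cells, and miR-142-5p 7.30 CPM in knockdown cells and 5.63 in control cells. The endothelial pair was higher in knockdown cells, at 204 CPM ± 10.7 in knockdown cells against 112 ± 2.57 in control cells.

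EVs were then set against the cells of their own line. miR-122-5p was higher in control EVs than in control cells, by a log2 fold change of 9.30 (SE 0.28, adjusted p = 6.7e-33), with a pooled ratio of 736 (95% exact interval 387 to 1613) that rests on 9 counts in the cells. In the same comparison 10 of 10 tested blood miRNAs, 7 of 7 stromal and 2 of 2 endothelial miRNAs were also higher in EVs. So was the 1 muscle miRNA tested of 4 listed, while 30.8% of all miRNAs tested were higher. Some of these had counts almost only in control EVs, such as miR-223-3p with 1710 there and 0 in control cells. Such miRNAs could pass the filter through control EVs alone, which sets their direction, so these counts carry no weight as a test. The part of these other sources, and of miRNAs from the serum of the earlier growth medium, in the EV level of miR-122-5p was not tested. In the knockdown line the log2 fold change was 1.04 (SE 0.49, adjusted p = 0.145), which did not pass, and the pooled ratio was 2.86 (1.42 to 5.27). It passed with library totals (1.51) and with a correction for GC content (1.40), and the adjusted p ranged from 0.0224 to 0.472 over 6 alternatives. In the knockout line miR-122-5p was higher in EVs than in cells (adjusted p = 0.00021), with 7 counts against none. With 3 counts set for the cells the ratio was 6.74, which leaves out the counting error of the 7 counts. Of 574 miRNAs tested, 53.7% passed in the control line, 30.8% as higher and 22.8% as lower in EVs. In the knockdown line 19.3% passed, 7.32% as higher and 12% as lower, and in the knockout line 59.1%, 33.3% as higher and 25.8% as lower. The higher share of the knockdown calls was 37.8%, and 75.6% with library totals.

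The difference between EVs and cells itself differed between lines. For miR-122-5p it was smaller in the knockdown line than in the control line (log2 difference −8.26, SE 0.50, adjusted p = 3.8e-19). In this test 18.6% of the miRNAs passed, 4.36% as higher and 14.3% as lower; the higher share of the calls was 23.4%, and 52.6% with library totals. The same test for the knockout line gave −3.88 (SE 16.3, adjusted p = 0.942), a fitted value against cells with no count and so no measure of size; DESeq2 gave −3.97, and the adjusted p ranged from 0.0315 to 1 over 6 alternatives. The pooled EV-to-cell ratio was 6.74 in the knockout line, with 3 counts set for its cells, and 736 in the control line. Of the 10 members of the blood list, 3 were lower in the knockdown test, where 14.3% of all miRNAs tested were lower. In the knockout test 6 were lower, where 23.3% of all miRNAs tested were lower and 24.9% higher. Members with counts almost only in control EVs could pass the filter through that group alone.

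**Figure D2:**
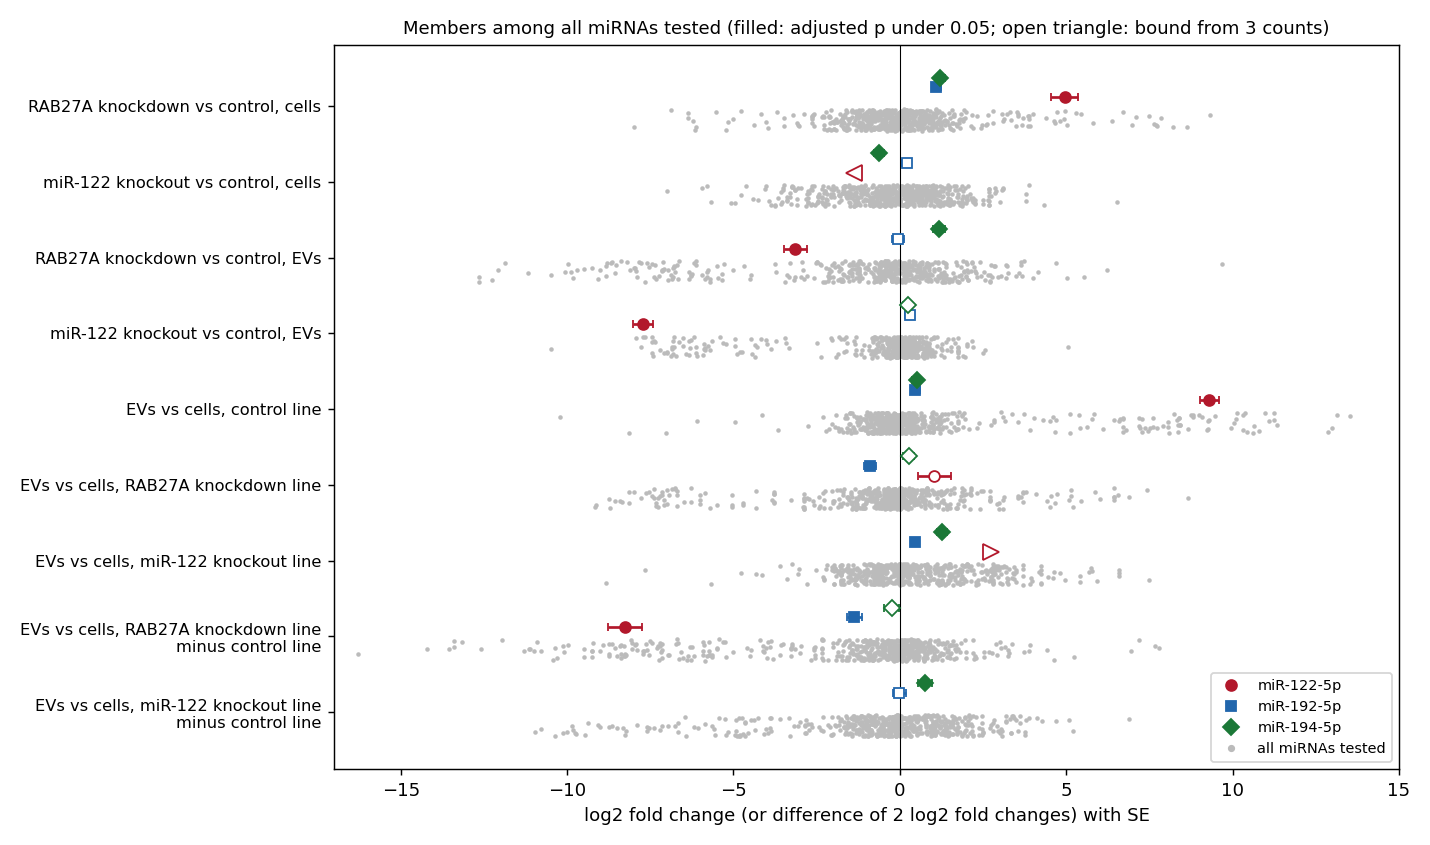
Fitted log2 fold changes of miR-122-5p, miR-192-5p and miR-194-5p with SE in 7 comparisons, and the log2 difference of 2 such fold changes in 2 more. Grey points are all miRNAs tested (488 to 613). Filled symbols passed an adjusted p of 0.05. Open triangles are ratios with 3 counts set for a group with none, without the counting error of the other group. miR-122-5p in the last comparison is left out because its fitted value has an SE of 16.3, and the largest value shown for it is 9.30 for EVs against cells of the control line.

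The miRNAs whose pattern over the 6 groups was closest to that of miR-122-5p were taken from 641 with at least 50 counts, by the root mean square difference between centred log2(CPM + 1) profiles. They were miR-379-5p of the imprinted cluster at 14q32 (1.33), miR-142-5p (1.35), miR-126-3p (1.35), miR-142-3p (1.39) and miR-126-5p (1.40), all highest in control EVs. miR-142 is known from leukocytes and miR-126 from endothelium. These differences were larger than the 0.201 to 0.297 of the 5 closest profiles of miR-192-5p, so the match is loose. In knockdown and control cells miR-126-3p averaged 124 and 72.0 CPM and miR-142-5p 7.30 and 5.63, against 12.5 and 0.392 for miR-122-5p. miR-379-5p averaged 9.01 CPM in knockdown EVs, 1.59 for knockout EVs and 272 for control EVs, and 0.475, 0.151 and 0.133 CPM in knockdown, knockout and control cells. Among the same 641, miR-194-5p was 75th closest to miR-122-5p (2.46) and miR-192-5p 160th (2.69).

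**Figure D3:**
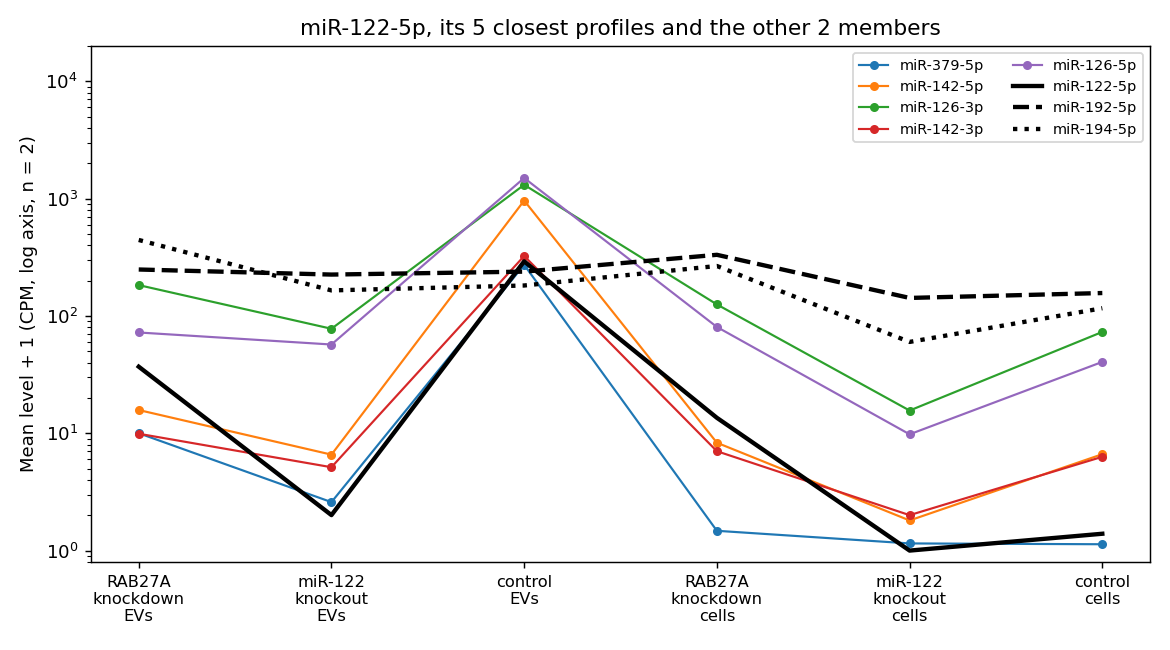
Mean level plus 1 (CPM, log axis, n = 2) of miR-122-5p, its 5 closest profiles and the other 2 abundant members in the 6 groups. miR-122-5p and its 5 neighbours stand highest in control EVs, from 272 CPM for miR-379-5p to 1497 for miR-126-5p, while miR-192-5p and miR-194-5p stay between 59.0 and 443 CPM.

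miR-192-5p and miR-194-5p were present in all 12 libraries, with 11293 and 7675 counts. miR-192-5p stood at 243 and 252 CPM in knockdown EVs, 219 and 230 for knockout EVs and 230 and 245 for control EVs. In cells it stood at 326 and 336 CPM in the knockdown line, 143 and 140 in the knockout line and 153 and 158 in the control line. Knockdown cells were above every other library for this miRNA, and the 3 EV groups lay close together, with overlapping Poisson intervals of the pooled counts between neighbours.

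miR-194-5p stood at 516 and 370 CPM in knockdown EVs, 164 and 164 for knockout EVs and 173 and 188 for control EVs. Knockdown cells held 255 and 275 CPM, knockout cells 59.6 and 58.5, and control cells 111 and 120. Knockdown EVs were highest and knockout cells lowest, and the libraries of no neighbours in the order of its 6 levels overlapped; only knockout and control EVs had overlapping intervals of the pooled counts.

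The level order of miR-192-5p and miR-194-5p depended on the scaling: on TMM-scaled library sizes miR-192-5p averaged 214 CPM ± 39.6 in knockout cells and 178 ± 11.2 in control cells (SD, n = 2 each), and miR-194-5p averaged 89.5 ± 16.4 in knockout cells and 132 ± 3.75 in control cells. In EVs miR-192-5p then averaged 176 CPM in the knockdown line, 226 in the knockout line and 190.2 in the control line.

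Both miRNAs were higher in knockdown than in control cells. miR-192-5p averaged 331 CPM ± 7.24 in knockdown cells and 156 ± 3.68 in control cells (SD, n = 2 each), a log2 fold change of 1.10 with SE 0.13 and adjusted p = 6.8e-07. miR-194-5p averaged 265 CPM ± 14.1 in knockdown cells and 115 ± 6.68 in control cells (SD, n = 2 each), a log2 fold change of 1.22 with SE 0.14 and adjusted p = 3.5e-07. Of the 5 members, 3 passed the filter on low counts and were higher, and the other 2 were too rare to test. Over all miRNAs tested, 24.3% were higher. Of the 3, miR-122-5p passed the filter through knockdown cells alone, which sets its direction, so it carries no weight in this count. The epithelial miR-200 list moved with them: it summed to 326 CPM ± 5.87 in knockdown cells and 160 ± 4.04 in control cells (SD, n = 2 each), with 3 of its 5 members higher, 1 lower and a median log2 fold change of 1.25. Its part in the result was not tested.

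In knockout cells miR-194-5p was lower than in control cells, and miR-192-5p did not pass the test. miR-194-5p averaged 59.0 CPM ± 0.805 in knockout cells and 115 ± 6.68 in control cells (SD, n = 2 each), with −0.62 as its log2 fold change (SE 0.14, adjusted p = 7.8e-04). miR-192-5p averaged 141 CPM ± 2.19 in knockout cells and 156 ± 3.68 in control cells (SD, n = 2 each), with 0.21 (SE 0.13, adjusted p = 0.181). These log2 values are relative to the TMM scale: the median over all miRNAs tested was −0.08 with TMM factors and −0.42 with library totals. On library totals miR-192-5p stood at −0.14 and miR-194-5p at −0.97, while the GC correction gave 0.33 and −0.35. miR-192-5p passed with the GC correction, and also with RLE factors and DESeq2, at 0.31 with each, and at 0.34 without knockout cell replicate 2; its adjusted p ranged from 0.0282 to 0.731 over 8 alternatives. The deviations of the knockout cell libraries from the mean of all libraries correlated with the GC content of the mature sequence across 506 miRNAs, at rank correlations of 0.401 and 0.38, against −0.203 to 0.093 in the other 10 libraries; the GC content is 47.6% for miR-192-5p and 45.5% for miR-194-5p.

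In knockdown EVs miR-194-5p was higher than in control EVs, and miR-192-5p did not pass the test. miR-194-5p averaged 443 CPM ± 104 in knockdown EVs and 181 ± 10.3 in control EVs (SD, n = 2 each), with 1.18 as its log2 fold change (SE 0.19, adjusted p = 1.7e-04). The epithelial list summed to 421 CPM ± 5.92 in knockdown EVs and 190.3 ± 15.3 in control EVs (SD, n = 2 each). Of its 5 members, 2 were higher and none lower, while 18.9% of all 488 miRNAs tested were higher and 27.5% lower. The list was also higher in knockout EVs, at 323 CPM ± 1.06. There 3 of its 5 members were higher and none lower, while 18.9% of all miRNAs tested were higher. The part of this list was not tested. miR-192-5p averaged 248 CPM ± 6.69 in knockdown EVs and 237 ± 10 in control EVs (SD, n = 2 each), with a log2 fold change of −0.05 (SE 0.18, adjusted p = 0.821). The knockdown EVs held 148 counts of miR-194-5p and 83 of miR-192-5p, and the pooled ratio for miR-192-5p was 1.04 with an exact 95% interval of 0.824 to 1.30. Between knockout and control EVs neither passed: miR-192-5p averaged 224 CPM ± 7.72 in knockout EVs and 237 ± 10 in control EVs (0.29, SE 0.12, adjusted p = 0.072), and miR-194-5p averaged 164 CPM ± 0.122 in knockout EVs and 181 ± 10.3 in control EVs (0.24, SE 0.14, adjusted p = 0.223). With library totals the signs turned, to −0.08 and −0.14, as the median over all miRNAs moved from 0.03 to −0.34.

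EVs held more of both miRNAs than cells in the control line. miR-192-5p had a log2 fold change of 0.47 (SE 0.13, adjusted p = 0.0025) and miR-194-5p of 0.51 (SE 0.14, adjusted p = 0.0021) there. Both calls were lost without filtering (0.09 and 0.14), without control cell replicate 1 (0.42 and 0.43) and without knockdown cell replicate 1 (0.26 and 0.30), and that of miR-192-5p also without knockout cell replicate 2 (0.26) or control EV replicate 2 (0.42). In the knockout line miR-194-5p was higher in EVs than in cells by a log2 fold change of 1.27 (SE 0.14, adjusted p = 1.0e-10), and miR-192-5p was higher too (0.46, SE 0.13, adjusted p = 0.0025), though its call was lost without filtering (0.07) and with the GC correction (0.22). In the knockdown line miR-192-5p was lower in EVs than in cells (−0.89, SE 0.19, adjusted p = 1.6e-04), a call lost with library totals (−0.42) and the GC correction (−0.49), with adjusted p from 4.7e-05 to 0.0936 over 6 alternatives. miR-194-5p did not pass there (0.26, SE 0.18, adjusted p = 0.336) but did with library totals (0.74) and the GC correction (0.63), with adjusted p from 0.00205 to 1 over 6 alternatives, and it stood at −0.19 without knockdown EV replicate 1.

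Tested between lines, the EV-to-cell difference of miR-192-5p was lower in the knockdown than in the control line (log2 difference −1.36, SE 0.23, adjusted p = 5.2e-06; −0.86 with the GC correction). That of miR-194-5p was not called for the knockdown line (−0.25, SE 0.22, adjusted p = 0.545) and was higher in the knockout than in the control line (0.76, SE 0.20, adjusted p = 0.0015). For the knockout line 48.3% of all miRNAs tested passed this test, 24.9% as higher and 23.3% as lower. miR-192-5p stood at −0.01 there (SE 0.19, adjusted p = 1).

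The balance of the 2 miRNAs within a library does not depend on its scaling. miR-192-5p made up 32% and 40.6% of their summed counts in knockdown EVs, 57.1% and 58.3% for knockout EVs and 57.1% and 56.5% for control EVs. In cells it made up 56% and 54.9% in the knockdown line, 70.6% and 70.5% in the knockout line and 58.1% and 56.9% in the control line. The exact binomial intervals of the knockout cells (68.4% to 72.5% over both libraries) and of the knockdown EVs (23.9% to 50.5%) overlapped with none of the other 8 libraries, which together spanned 52.7% to 61.1%. Knockout EVs lay among the other libraries, apart from the knockout cells they were collected with. The balance was not tested between groups.

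**Figure D4:**
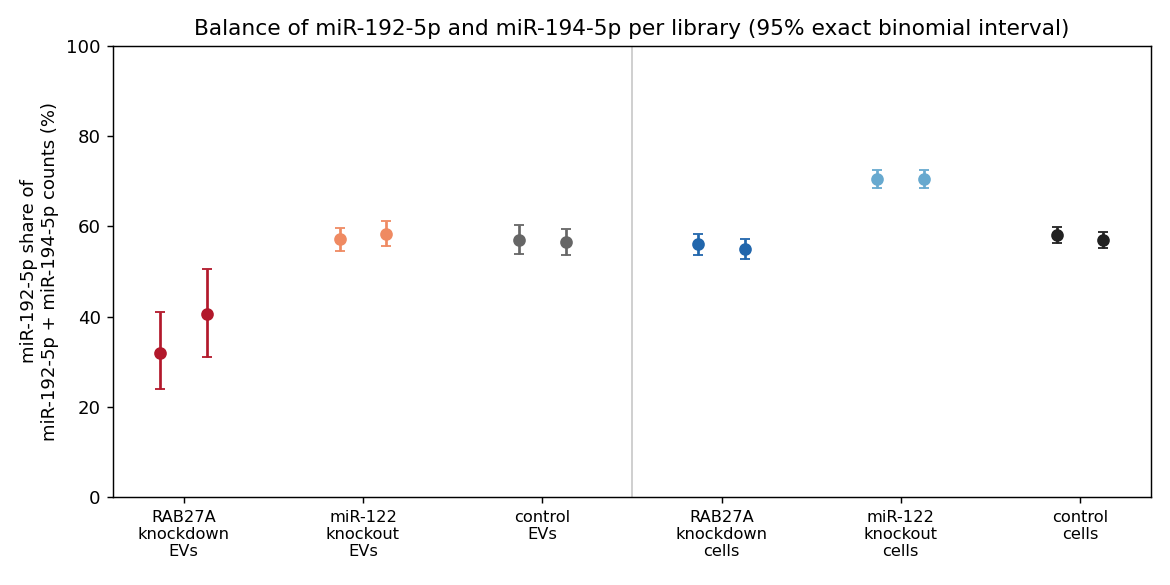
Share of miR-192-5p in the summed counts of miR-192-5p and miR-194-5p in each of the 12 libraries (percent), with 95% exact binomial intervals. Knockout cells stand at 70.6% and 70.5% and knockdown EVs at 32% and 40.6%, while the other 8 libraries lie between 54.9% and 58.3%.

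miR-215-5p, the seed partner of miR-192-5p made beside MIR194-1, was detected in every library at a small fraction of its level, with 228 counts in all. It averaged 11.9 CPM ± 0.288 in knockdown EVs, 4.86 ± 1.61 for knockout EVs and 10.1 ± 2.3 for control EVs, and 4.76 ± 0.878, 2.2 ± 0.373 and 2.94 ± 0.82 in knockdown, knockout and control cells (SD, n = 2 each). The knockdown EV value rests on 2 and 2 counts. It was higher in EVs than in cells of the control line (log2 fold change 1.63, SE 0.35, adjusted p = 8.6e-05) and of the knockout line (0.91, SE 0.40, adjusted p = 0.047). No difference between lines passed for it, with adjusted p-values of 0.13 and 0.863 in cells and 0.902 and 0.151 in EVs. Its share of the summed miR-192-5p and miR-215-5p counts was 4.84% and 3.35% in control EVs and 1.52% and 2.18% in control cells, so most counts with their shared seed were those of miR-192-5p.

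The remaining members and arms were at or near 0. miR-122-3p had 1 count in all, in a knockdown cell library, so the 39 and 40 counts of miR-122-5p in knockdown cells came with 1 of the other arm. The 1441 miR-122-5p counts of control EVs came with none, which allows up to 0.602 CPM of miR-122-3p over that group. miR-885-5p had 3 counts, 1 in a knockout EV library and 2 in a control EV library, and none in any cell library. Neither passed the filter, so neither was tested, and differences between groups were not detectable at this depth. Of the other arms and relatives, miR-192-3p had 7 counts and miR-194-3p 6, spread over 5 and 4 libraries, miR-885-3p and the antisense miR-3591-5p had 1 each, both in control EVs, and miR-215-3p and miR-3591-3p had none. The 5p arms of miR-192 and miR-194 thus made up nearly all counts of their hairpins.

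Summed over the 5 rows, the liver miRNAs came to 802 and 652 CPM in knockdown EVs, 384 and 395 for knockout EVs and 735 and 684 for control EVs, and to 594 and 624 CPM in knockdown cells, 202 and 198 in knockout cells and 264 and 279 in control cells. Of that sum miR-122-5p was 5.3% and 4.5% in knockdown EVs, 0.278% and 0.24% for knockout EVs and 45% and 36.7% for control EVs. In cells it was 2.08% and 2.04% of the sum in the knockdown line, 0 in the knockout line, and 0.16% and 0.13% in the control line. Over the 3 tested members the median log2 fold change was 1.22 for knockdown against control cells, beside −0.11 over all 613 miRNAs, and −0.62 beside −0.08 for knockout against control cells. In EVs it was −0.05 beside −0.29 for the knockdown and 0.24 beside 0.03 for the knockout, with 1 member higher and 1 lower for the knockdown, where 18.9% of all miRNAs tested were higher and 27.5% lower, and 1 member lower for the knockout, where 22.3% were lower.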

How the data were processed

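Small RNA was sequenced from the cells and EVs of 3 lines. The authors deposited a table of raw counts for mature miRNAs. Reads went through cutadapt and Bowtie, with build hg19 named, per the submitters' processing notes. The versions, the miRNA annotation and the handling of reads that match more than 1 miRNA are not stated there. All 12 columns were matched to samples by their descriptions. Levels are CPM of the library total, with exact Poisson intervals (95%) and, for 0, a limit of 3 counts. Tests used edgeR 4.0.16 (limma 3.58.1, R 4.3.3): quasi-likelihood, robust, TMM factors, filterByExpr, Benjamini-Hochberg at 0.05, on the 6 libraries of a fraction for comparisons of lines and on all 12 for EVs against cells and interactions. Interactions are differences of 2 log2 fold changes. The SE is the size of the log2 fold change over the square root of F. The steps were also run on simulated counts in which 200 miRNAs differed and the groups were otherwise equal. That setting is simpler than these data, and no result here rests on its outcome. RefSeq sequences matched all 5 members; coordinates are GRCh38 and were not used with the counts. Alternatives were RLE factors, library totals, no filter, DESeq2 1.42.0, a replicate block, fits on more or fewer libraries, each library left out and a GC correction.

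The deviations of same-numbered libraries showed no correlation above 0.0662 over 15 pairs of groups, so the reported tests have no replicate block. Such low correlations cannot show that the libraries were unpaired. The members, lists and tests were chosen with earlier results of these data known. The text names every member, the listed other arms and relatives, the 5 closest profiles of miR-122-5p, and markers; the 5 closest profiles of miR-192-5p and miR-194-5p are given with the dependence on processing.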

Additional observations from a re-analysis of the deposited data

Results flagged for a closer look

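The difference between EVs and cells differed between lines for 3 results. For miR-122-5p it was lower in the RAB27A knockdown than in the control line by a log2 difference of −8.26 (SE 0.50, adjusted p = 3.8e-19 by edgeR's quasi-likelihood test), and the sign held in all 12 fits that left out a library (−8.58 to −8.01). For miR-192-5p it was lower in the knockdown than in the control line (−1.36, SE 0.23, adjusted p = 5.2e-06). For miR-194-5p it was higher in the miR-122 knockout than in the control line (0.76, SE 0.20, adjusted p = 0.0015). These tests share the control libraries. Groups of 2 libraries were not searched for a library standing apart.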

How the results depend on the processing

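The calls of miR-122-5p between lines, in cells and in EVs, and of its EV-to-cell difference in the control and knockout lines kept their direction and side of the threshold in every alternative run, as did those of miR-192-5p and miR-194-5p in knockdown cells and of miR-194-5p in knockout cells and knockdown EVs. Signs turned for values that had not passed. miR-192-5p in knockout cells stood at −0.14 with library totals and between −0.025 and 0.34 with a library left out. In knockdown EVs miR-192-5p stood at 0.061 with library totals, 0.43 with the GC correction and 0.060 on the 4 libraries compared. In knockout EVs miR-192-5p stood at −0.084 and miR-194-5p at −0.14 with library totals. For EVs against cells of the knockdown line, miR-194-5p ranged from −0.19 to 0.32 with a library left out. The interaction of miR-194-5p with the knockdown stood at 0.088 with library totals, 0.088 without filtering and 0.25 with the GC correction, and that of miR-192-5p with the knockout at 0.056 with library totals and between −0.075 and 0.17 with a library left out. The cause was not tested. miR-122-5p in knockout cells could not be fitted on the 4 libraries compared, where it did not pass the filter.

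Numbers of calls moved by over 1.5 times in 3 fits with a library left out: for knockdown cells they ranged from 196 to 385 around 330, and for knockout EVs from 127 to 205 around 201. The higher ones made up 19.2% of calls in knockout EVs with library totals and 45.8% with TMM factors, 32.4% and 44.5% in knockout cells, 61.5% with the GC correction and 23.4% without for the interaction with the knockdown, and 58.5% with the GC correction and 40.7% without in knockdown EVs. The GC correction was chosen after seeing the data. The replicate block changed no call of a member; with it 319 miRNAs passed in knockdown cells and 181 in knockout EVs. Deviations of same-numbered libraries correlated at −0.0695 to 0.0662 over 15 pairs of groups.

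The 5 closest profiles were miR-548a-3p, miR-2355-5p, miR-378f, miR-24-3p and miR-3152-5p for miR-192-5p (differences 0.201 to 0.297) and miR-651-5p, miR-598-3p, miR-23a-3p, miR-30c-5p and miR-301a-3p for miR-194-5p (0.26 to 0.381). With a pseudocount of 5 CPM, 2 of those of miR-192-5p remained, and with TMM-scaled sizes 3. Depth limits the knockdown EVs most, where 3 counts are 8.95 CPM over the group.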
